A study of Caenorhabditis elegans with 6 samples.

Results

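The phat genes of Caenorhabditis elegans were followed here in larvae with and without RNA interference (RNAi) against nhr-23. A probe set belonged to the family if its only gene symbol began with phat-, and 8 probe sets met this rule, 1 for each of 8 genes (phat-1 to phat-8) among 17118 genes with a probe set of their own. The gene table listed the same number of phat genes, so each had a probe set. Without detection calls it is not known whether each transcript was detected. A further probe set that was annotated to both phat-3 and phat-7 was left out. The genes were chosen by symbol, and the family was selected on earlier results of the same comparison, in which its RNAi minus control differences were known. The differences between groups below are therefore a description and carry no test of the family.

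The phat genes take their name from the pharyngeal gland and from a likeness to toxins. The gland cells lie in the pharynx, the feeding organ of the worm, and release their product through ducts into its lumen. Their mucin-like secretions line the food channel, and the glands are known to become active around a molt, when the pharyngeal cuticle is replaced together with that of the body. The bHLH transcription factor HLH-6 is needed for gland development and gland gene expression. NHR-23 is a nuclear hormone receptor required for molting. No separate role is given here for single phat proteins.

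RNA came from whole N2 larvae, given in the labels as L2, collected 21 hours after synchronized L1 larvae were put on plates of 2% agarose at 20 C. The control group (3 arrays) was fed HT115 bacteria with the empty vector L4440, which the sample descriptions call a source of short nonspecific dsRNA. The other group (3 arrays) was fed the same bacteria with L4440 holding an insert against the ligand-binding domain of nhr-23. No transgene or mutation is named for either group, and RNAi by feeding lowers a transcript without removing the gene. In whole-animal RNA, fewer gland cells and less RNA per gland cell cannot be told apart. The titles call the 3 samples of a group biological replicates and say nothing more of separate cultures, so errors measure the spread between these samples.

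The targeted gene did not give a single answer. Its probe sets are called brighter and dimmer by their control values, since their order was reversed in the other group. The brighter nhr-23 probe set read 8.27, 8.12 and 7.74 in control replicates 1, 2 and 3. In the arrays labelled nhr-23 RNAi it read 7.67, 7.47 and 7.52, on the log2 scale used for all values here. The other nhr-23 probe set read 6.60, 6.56 and 5.80 in controls and 8.76, 9.61 and 8.76 in the RNAi-labelled arrays. The groups did not overlap in either probe set and differed in opposite directions, by -0.49 log2 (SE 0.15) in the brighter and by 2.72 log2 (SE 0.30) in the dimmer, which was 6.60-fold higher, the opposite of a knockdown. The fed dsRNA holds part of nhr-23, and the stretch of the gene covered by either probe set was not known here. All directions below are those of the arrays as labelled. Array medians lay between 5.12 and 5.18. The 7 probe sets of vitellogenin genes, the yolk proteins of adult intestine, kept list means between 4.16 and 4.41 over the arrays, and the 24 of major sperm proteins between 4.57 and 4.76.

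All 8 phat probe sets had a lower mean in the RNAi-labelled arrays, and 7 of 8 were lower in each of the 3 same-number pairs. The exception in the pairs was phat-8. Among all 22548 probe sets tested, 45% had a lower mean and 11.1% were lower in all 3 pairs. The median difference of the family was -0.40 log2, against 0.01 log2 over all probe sets, and single members lay between -0.80 for phat-2 and -0.20 for phat-8. The groups did not overlap for 4 members, phat-1, phat-3, phat-4 and phat-7, where 3.14% of all probe sets were lower without overlap. No probe set of any gene passed limma over the whole table at an adjusted p under 0.05, a share of 0% (smallest adjusted p = 0.993), so 0 phat genes passed. Before adjustment 833 probe sets, 3.69% of those tested, had a p under 0.05 in either direction. With the replicate number as a block 2 probe sets passed (0.00887%), neither of a phat gene. One of them was the dimmer nhr-23 probe set, higher in the RNAi-labelled arrays (limma with the block, adjusted p = 0.037). The same-number pairs are shown because deviations from the group means correlated between same-numbered arrays, as set out with the processing. The correlation was 0.58 and 0.57 for replicates 1 and 3 but 0.17 for replicate 2. Control replicate 2 correlated better with RNAi replicate 1 (0.23), so the replicate 2 pair is less certain.

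**Figure D1:**
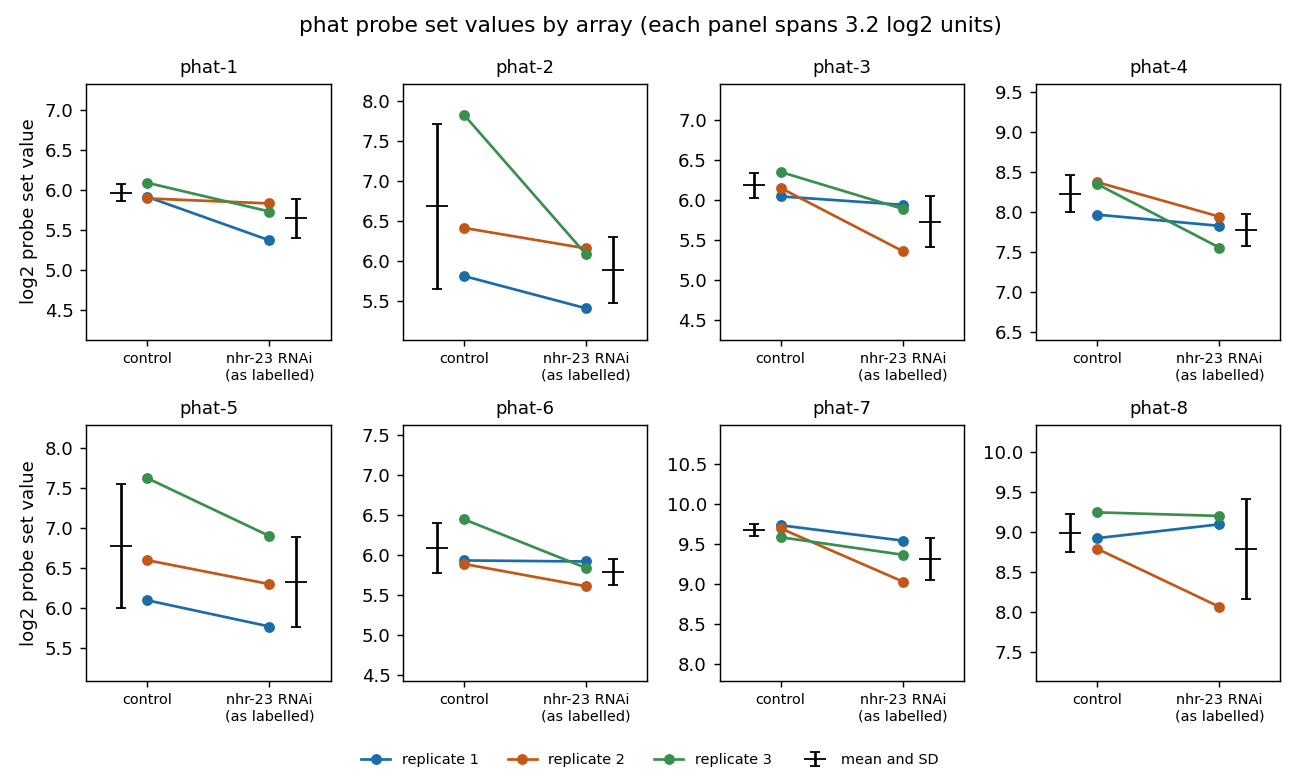
Log2 values of the 8 phat probe sets (vertical axis) in control arrays and arrays labelled nhr-23 RNAi (horizontal axis), with arrays of the same replicate number joined and the group mean and SD (n = 3) beside them. Lines run downward for each gene and number except phat-8 in replicate 1, and control replicate 3 of phat-2 stands at 7.82, above all other phat-2 values.

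Of the 4 members without overlap, phat-4 is described first. It read 7.97, 8.37 and 8.35 in control replicates 1, 2 and 3 and 7.83, 7.94 and 7.56 in the RNAi-labelled arrays of the same numbers. Its group means were 8.23 ± 0.23 (SD, n = 3) and 7.78 ± 0.20 (SD, n = 3), a difference of -0.45 log2 (SE 0.15), or 1.37-fold lower. The highest RNAi-labelled value lay 0.02 log2 below the lowest control, and the pairs differed by -0.14, -0.43 and -0.79 log2. The difference ran from -0.59 to -0.34 log2 with any 1 array left out, and was -0.29 log2 without both arrays of replicate 3.

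phat-3 read 6.04, 6.15 and 6.35 in controls and 5.94, 5.36 and 5.89 in RNAi-labelled arrays. RNAi-labelled replicate 1 lay 0.11 log2 under the lowest control and replicate 3 close to it, while replicate 2 lay well below. The means were 6.18 ± 0.16 (SD, n = 3) and 5.73 ± 0.32 (SD, n = 3), 1.37-fold lower (log2 difference -0.45, SE 0.17). Its pairs differed by -0.11, -0.79 and -0.46 log2, and without RNAi replicate 2 the difference was -0.27 log2.

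phat-7 lies next to phat-3 in the gene order, with 0 protein-coding genes between them. It read 9.74, 9.70 and 9.59 in controls and 9.55, 9.04 and 9.37 in RNAi-labelled arrays. The controls were close together, and RNAi-labelled replicate 1 lay only 0.04 log2 under the lowest of them. The means were 9.68 ± 0.08 (SD, n = 3) and 9.32 ± 0.26 (SD, n = 3), 1.28-fold lower (log2 difference -0.36, SE 0.14). The pairs differed by -0.19, -0.66 and -0.22 log2, so as in phat-3 the replicate 2 pair was widest, and without RNAi replicate 2 the difference was -0.22 log2. Because a probe set exists that is annotated to both genes, the values of phat-3 and phat-7 may not be independent of each other.

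phat-1 read 5.91, 5.89 and 6.09 in controls and 5.37, 5.83 and 5.73 in RNAi-labelled arrays. Here RNAi-labelled replicate 1 was the low array, and replicate 2 lay 0.06 log2 under its control. The means were 5.96 ± 0.11 (SD, n = 3) and 5.64 ± 0.24 (SD, n = 3), 1.25-fold lower (log2 difference -0.32, SE 0.13). The pairs differed by -0.54, -0.06 and -0.36 log2, and without RNAi replicate 1 the difference was -0.18 log2.

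The groups overlapped for the other 4 members. phat-2, the neighbour of phat-1 with 0 protein-coding genes between them, had the largest difference of the family and the largest spread. It read 5.81, 6.41 and 7.82 in controls and 5.41, 6.15 and 6.08 in RNAi-labelled arrays. Control replicate 3 was thus 1.72 log2 above the mean of the other controls, while the RNAi-labelled arrays of replicates 2 and 3 lay between the lower controls. The means were 6.68 ± 1.03 (SD, n = 3) and 5.88 ± 0.41 (SD, n = 3), 1.74-fold lower (log2 difference -0.80, SE 0.50). The pairs differed by -0.40, -0.26 and -1.75 log2. Without control replicate 3 the difference was -0.23 log2, without control replicate 1 it was -1.24 log2, and without both arrays of replicate 3 it was -0.33 log2.

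phat-5 varied by replicate number more than by group. It read 6.09, 6.59 and 7.62 in controls and 5.76, 6.29 and 6.89 in RNAi-labelled arrays. The replicate 3 array was the highest and the replicate 1 array the lowest in both groups, and every RNAi-labelled array lay below the control of its own number. The means were 6.77 ± 0.78 (SD, n = 3) and 6.32 ± 0.57 (SD, n = 3), 1.37-fold lower (log2 difference -0.45, SE 0.43). The SE was 0.11 with the replicate block, since the pairs differed by -0.33, -0.30 and -0.72 log2. Leaving out single arrays moved the difference widely. It was -0.02 log2 when control replicate 3 was left out and -0.79 log2 when control replicate 1 was. Among the RNAi-labelled arrays, it was -0.17 log2 when replicate 1 was left out and -0.74 log2 when replicate 3 was.

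phat-6 read 5.93, 5.89 and 6.44 in controls and 5.92, 5.61 and 5.84 in RNAi-labelled arrays. Control replicate 3 was high, and the replicate 1 arrays of both groups were nearly equal, with a pair difference of -0.01 log2. The means were 6.09 ± 0.31 (SD, n = 3) and 5.79 ± 0.16 (SD, n = 3), 1.23-fold lower (log2 difference -0.30, SE 0.17). The other pairs differed by -0.28 and -0.61 log2, and without control replicate 3 the group difference was -0.12 log2.

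phat-8 was the member whose direction rested on a single array. It read 8.92, 8.79 and 9.24 in controls and 9.09, 8.06 and 9.20 in RNAi-labelled arrays. RNAi-labelled replicate 2 was the only RNAi-labelled array below all controls. The means were 8.98 ± 0.23 (SD, n = 3) and 8.78 ± 0.63 (SD, n = 3), which differed by -0.20 log2 (SE 0.30). The pairs differed by 0.17, -0.73 and -0.04 log2. Leaving out RNAi replicate 2 turned the difference to 0.16 log2. It was -0.07 log2 when control replicate 3 was left out, -0.35 log2 when RNAi replicate 1 was, and -0.41 log2 when RNAi replicate 3 was.

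**Figure D2:**
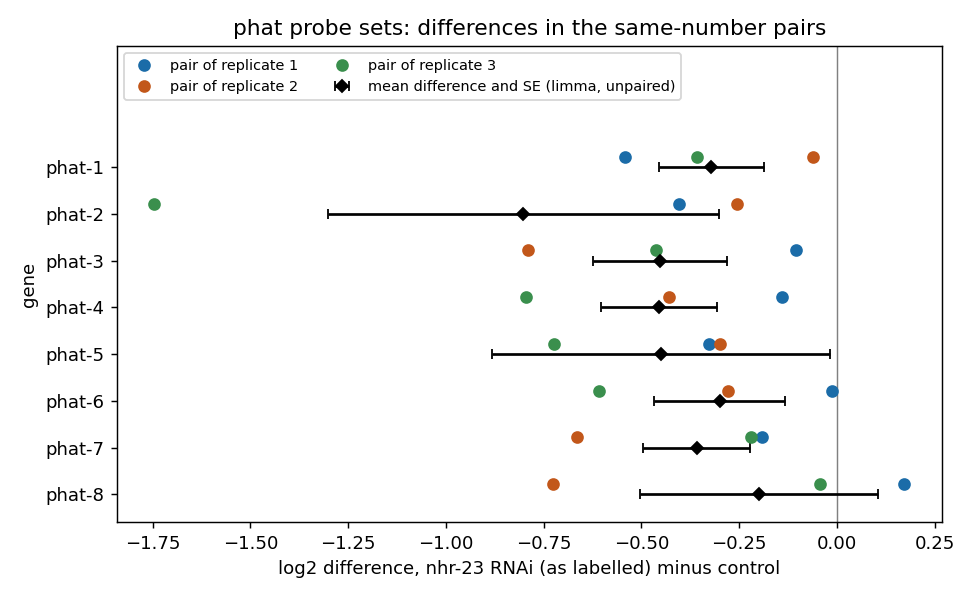
Log2 difference of each phat probe set, RNAi-labelled minus control (horizontal axis), for the 3 same-number pairs (circles) and for the group means with their SE from limma without the block (diamonds and bars). The widest pair is that of replicate 3 for phat-2, phat-4, phat-5 and phat-6, that of replicate 2 for phat-3, phat-7 and phat-8, and that of replicate 1 for phat-1.

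In same-number pairs 1, 2 and 3 the family had median differences of -0.17, -0.36 and -0.54 log2, against 0.00, 0.02 and 0.03 log2 over all probe sets. With 1 array left out it ran from -0.45 log2 without control replicate 1 to -0.25 log2 without control replicate 3. The count of lower members was 7 of 8 without RNAi replicate 2, where phat-8 was the exception, and 8 of 8 without any other single array. The 3 probe sets of phat-2, phat-5 and phat-6 carry the suffix _s_at, used by Affymetrix for probes that can match more than 1 transcript. They could therefore read related transcripts as well, and the remaining 5 members, which were all lower, had a median difference of -0.36 log2.

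**Figure D3:**
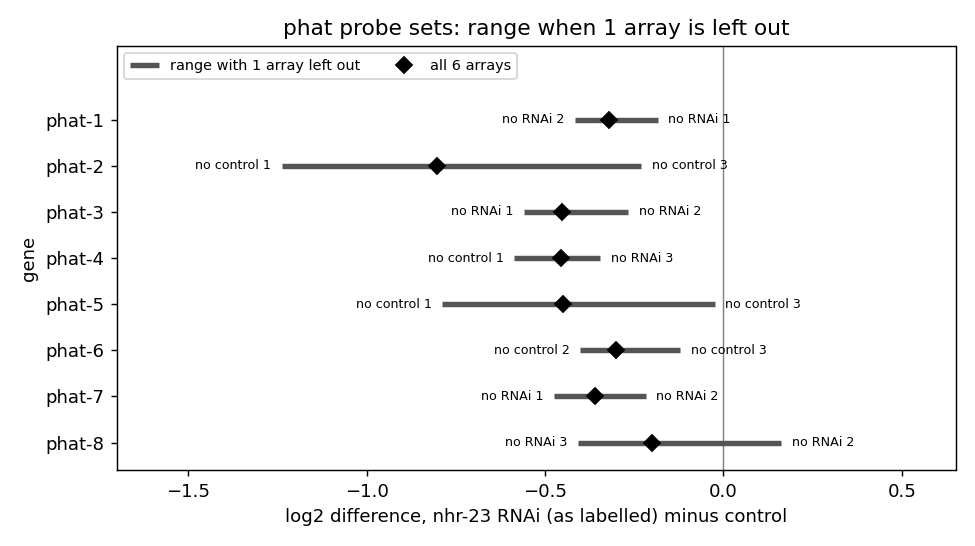
Log2 difference of each phat probe set, RNAi-labelled minus control (horizontal axis), with all 6 arrays (diamonds) and its range when any 1 array is left out (bars, with the array behind each end named). Bars of 7 genes stay below 0, while that of phat-8 ends at 0.16 without RNAi replicate 2 and that of phat-5 at -0.02 without control replicate 3.

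The members did not share a single pattern over the arrays. Control replicate 3 was the highest control for 6 of 8 members (all but phat-4 and phat-7), against 35.4% of all probe sets. In the marker lists below it was the highest control for 13 of 15 neuronal and 62 of 94 abu, pqn and chs-2 probe sets. The counts were 5 of 9 for the other gland genes, 5 of 8 for intestine and 2 of 8 for pharyngeal muscle. They were 4 of 15 for body wall muscle and 2 of 10 for epidermis. RNAi-labelled replicate 2 was the lowest of its group for 4 of 8, phat-3, phat-6, phat-7 and phat-8, against 32.9% of all probe sets. Within-group SDs were large in the table as a whole for phat-2 (0.79 log2, above that of 98.8% of probe sets), phat-5 (0.68, above 98.2%) and phat-8 (0.47, above 96.3%). The steadiest was phat-1 (0.19, above 75.9%).

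Over the 6 arrays, the 28 pairs of members had Pearson correlations between -0.07 and 0.93, with a median of 0.52, and 26 were above 0. These values include the difference between the groups, and all points share the same 6 arrays. The closest pair was phat-2 with phat-5 (0.93), which are not neighbours, and the next was phat-3 with phat-7 (0.87), which are. The probe sets of phat-2 and phat-5 both carry the suffix _s_at, so their values may not be independent of each other. The neighbours phat-1 and phat-2 had 0.78, and phat-4 and phat-5, with 2 protein-coding genes between them, had 0.39. After the group means were taken out, the correlation was 0.92 for phat-2 with phat-5, 0.71 for phat-3 with phat-7, 0.69 for phat-1 with phat-2, 0.95 for phat-3 with phat-8, which is no neighbour, and -0.88 for phat-1 with phat-7. Of the 28 correlations 8 were then below 0, against 2 before.

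**Figure D4:**
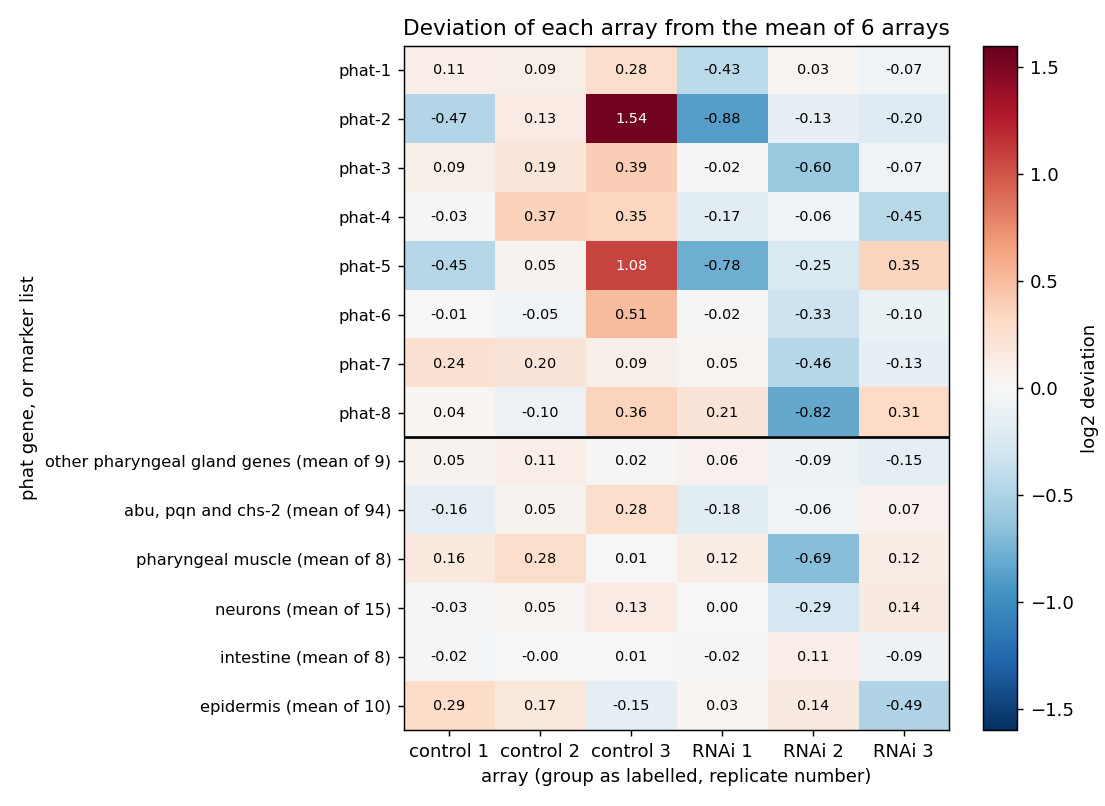
Deviation in log2 of each array from the mean of 6 arrays (colour and printed value) for the 8 phat probe sets and, under the line, the mean over marker lists, with arrays as columns. Control replicate 3 is highest for phat-2 (1.54) and phat-5 (1.08), RNAi replicate 2 is lowest for phat-8 (-0.82), and the pharyngeal muscle list is also lowest in RNAi replicate 2 (-0.69).

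The list of other pharyngeal gland genes held 6 genes with 9 probe sets. Of these 6 (66.7%) were lower and 3 higher in the mean, against 45% of all probe sets lower. In all 3 pairs 1 was lower and 1 higher, where 2497 of all 22548 probe sets (11.1%) were lower and 3669 higher. The list had a median difference of -0.08 log2, and 0 passed the test. The probe sets of hlh-6, kel-1 and nas-12 were dim, with group means from 3.29 to 4.89, below the array medians (5.12 to 5.18). hlh-6, which encodes the gland transcription factor, read 3.38, 3.34 and 3.16 in controls and 3.28, 3.43 and 3.35 in RNAi-labelled arrays. The groups overlapped. Without detection calls it is not known whether its probe set measured a transcript at all, so the gland origin of the phat signal could not be checked against it.

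kel-1, which encodes a kelch-repeat protein made in the gland cells, had probe sets with differences of 0.20 and 0.01 log2. The first was higher in each pair, by 0.36, 0.21 and 0.04 log2, and its difference was 0.13 log2 without control replicate 1 and 0.31 log2 without control replicate 3. nas-12, an astacin protease gene, differed by -0.10 log2, with control replicate 3 at 5.23 against 4.03 and 4.33 in the other controls. That is the same high array as in phat-2 and phat-5. dod-6, also in the gland list, read 9.16, 9.35 and 9.52 in controls and 9.31, 8.61 and 9.12 in RNAi-labelled arrays, a difference of -0.33 log2 (SE 0.19), or -0.12 log2 without RNAi replicate 2. RNAi-labelled replicate 2 was its lowest array, as in phat-3, phat-6, phat-7 and phat-8. The dod-6 probe set carries the suffix _x_at, so it had no value where _s_at and _x_at probe sets were left out.

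The FoxA factor gene pha-4, which specifies the pharynx, differed by -0.08 log2 in both of its probe sets. peb-1, a DNA-binding factor gene active in the pharynx beyond the glands, differed by -0.47 and -0.30 log2 in its 2 probe sets. Its first read 8.67, 8.29 and 7.52 in controls and 8.28, 7.89 and 6.92 in RNAi-labelled arrays. Both replicate 3 arrays were thus the lowest of their groups for peb-1, where those of phat-5 were the highest. The pairs of this first probe set differed by -0.39, -0.41 and -0.60 log2, lower in each. Its SE was 0.41 without the replicate block and 0.09 with it. With both arrays of replicate 1, 2 or 3 left out the difference was -0.50, -0.50 or -0.40 log2. Leaving out single arrays breaks a pair, and the difference then was -0.79 log2 when control replicate 3 was left out and -0.21 log2 when control replicate 1 was. It was -0.76 log2 when RNAi replicate 1 was left out and -0.08 log2 when RNAi replicate 3 was. The second peb-1 probe set was lower in 2 of 3 pairs, which differed by -0.37, -0.73 and 0.21 log2. Its SE was 0.47 without the replicate block and 0.17 with it.

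Marker lists of other tissues moved with single arrays as well. For the 8 probe sets of pharyngeal muscle genes, the mean level was 7.42, 7.54 and 7.28 in controls and 7.39, 6.58 and 7.39 in RNAi-labelled arrays. RNAi-labelled replicate 2 thus stood lowest, as for phat-3, phat-6, phat-7 and phat-8. All 8 muscle probe sets had a lower mean in the RNAi-labelled arrays, against 45% of all probe sets. In all 3 pairs 1 was lower, against 11.1% of all probe sets. This was a probe set of ceh-22, a homeobox gene of pharyngeal muscle (log2 difference -0.49). It was dim, with group means of 3.76 and 3.27, below the array medians of 5.12 to 5.18. The second ceh-22 probe set differed by -0.23 log2, overlapped between the groups and was higher by 0.02 log2 in the replicate 1 pair. The mean level of 15 neuronal probe sets was 8.05, 8.13 and 8.21 in controls and 8.08, 7.80 and 8.23 in RNAi-labelled arrays. It was highest in replicate 3 of both groups and again lowest in RNAi-labelled replicate 2. The 8 intestinal probe sets lay between 9.28 and 9.48 in all arrays and the 15 of body wall muscle between 9.23 and 9.43. For 10 epidermal probe sets the mean was 8.39, 8.26 and 7.95 in controls and 8.13, 8.24 and 7.61 in RNAi-labelled arrays, lowest in replicate 3 of both groups. The members did not all follow this mean, as control replicate 3 was the highest control for 2 of the 10. In control replicate 3 the list deviated from the mean of 6 arrays by -0.15 log2 in the mean and -0.05 log2 in the median. In RNAi-labelled replicate 3 these were -0.49 and -0.32 log2. The part of these shifts in the phat values was not tested. Without both arrays of replicate 2, 7 of 8 phat members were lower, with a median of -0.38 log2, and without both of replicate 3, 8 of 8 were lower, with a median of -0.31 log2.

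The abu and pqn genes, of which many encode components of the pharyngeal cuticle, and the pharyngeal chitin synthase gene chs-2 made up 94 probe sets of 59 genes. Of these 61 (64.9%) were lower and 33 higher in the mean, against 45% of all probe sets lower. In all 3 pairs 14 were lower and 7 higher, and 0 passed the test, with a median difference of -0.06 log2. Without overlap between groups 4 were lower and 4 higher. Of all 22548 probe sets, 709 (3.14%) were lower and 1434 higher without overlap. In all 3 pairs 2497 of the whole table (11.1%) were lower and 3669 higher. The mean level of the 94 was 5.95, 6.16 and 6.38 in controls and 5.93, 6.04 and 6.18 in RNAi-labelled arrays. It was highest in replicate 3 of both groups, as in phat-5. The member with the smallest unadjusted p was pqn-21, whose control mean was 4.51 ± 0.09 (SD, n = 3) and whose RNAi-labelled mean was 4.23 ± 0.11 (SD, n = 3).

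The probe sets most like the mean phat profile were found by Pearson correlation over the 6 arrays among 2422 of other single genes with a mean of at least 6 and an SD of at least 0.2 log2. The 5 closest were those of F19C7.8 (0.987), ben-1, a beta-tubulin gene (0.986), F19C6.2 (0.983), idpb-4 (0.977) and flp-2, which encodes FMRFamide-like peptides (0.974). Each was highest in control replicate 3 and lowest in RNAi-labelled replicate 2. F19C7.8, for example, read 6.59, 6.72 and 7.02 in controls and 6.39, 6.39 and 6.51 in RNAi-labelled arrays. The mean phat profile had these extremes itself, at 0.58 and -0.33 log2 from the mean of 6 arrays, so they follow from the selection. In control replicate 3 that profile weighs phat-2 (1.54) and phat-5 (1.08) most. With 6 arrays, 61 of the candidates (2.52%) had a correlation above 0.9, and their median was 0.24.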

How the data were processed

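RNA from 6 whole-larva samples was hybridised to single-colour Affymetrix arrays, from 4 ug of total RNA per the labels' protocols. Values are log2 signals of probe sets, as deposited. The submitters' processing notes name MAS5, RMA and Partek without versions or roles, so how background and scale were set is known only from the values. No detection calls or scanner intensities were used here, changes of dim probe sets may be compressed, and precision is limited by the number of arrays. The fly growth protocol in the labels cannot refer to these worms.

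The table held 22625 probe sets, of which 77 array controls were left out. Symbols came from the platform annotation (20766 probe sets with 1 symbol, 887 with several, 895 not listed), updated through Entrez identifiers with the WBcel235 gene table, which matched 8 of 8 phat genes and gave the gene order. Coordinates are left out, since the build of the array is not known here. The groups were compared by a 2-sided test with group as the only term (lmFit and eBayes of limma 3.58.1, under R 4.3.3), with Benjamini-Hochberg adjustment over 22548 probe sets and a threshold of 0.05, and the fit was tested on simulated data. SEs are limma's and SDs are over 3 arrays. The members and lists were chosen with earlier results of these data known. Named genes are all phat genes, nhr-23, the other gland genes, the member of the pharyngeal cuticle (abu, pqn and chs-2) and pharyngeal muscle lists with the smallest unadjusted p, and the 5 probe sets most like the phat profile.

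Deviations from the group means correlated over probe sets between same-numbered arrays at 0.58, 0.17 and 0.57 for replicates 1, 2 and 3, so the numbers were taken to pair the arrays, from the values and not from the labels. Control replicate 2 correlated better with RNAi replicate 1 (0.23). Alternatives were the replicate block, each array and each number left out, quantile normalization, median centring, a filter on dim probe sets, a variance trend and leaving out _s_at and _x_at probe sets.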

Additional observations from a re-analysis of the deposited data

How the results depend on the processing

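Of the 15 alternatives, 5 repeat a phat difference by construction or move all probe sets by the same amount (the block, the variance trend, the filter, the probe set suffix and median centring). The other 10 leave out some of the same arrays or apply quantile normalization to them, so their values overlap and are not independent. The family was also chosen with its differences known. The count of these values therefore describes how far the differences depend on single arrays and carries no test of the family. These 10 alternatives gave 80 values for the 8 phat genes, of which 78 were lower in the RNAi-labelled arrays. The rest were those of phat-8, at 0.16 log2 without RNAi replicate 2 and 0.064 log2 without replicate 2 in both groups. With 1 array left out phat-8 ran from -0.41 to 0.16 log2. The family median of -0.40 log2 ran from -0.45 to -0.25 log2 with 1 array left out (-0.25 log2 without control replicate 3). The count of lower members ran from 7 to 8 and was 5 of 5 without _s_at and _x_at probe sets. With the replicate block 2 probe sets of the whole table passed, against 0 without it, and the block changed no phat call.

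Of the other gland genes, with 1 array left out hlh-6 ran from -0.0043 to 0.11 log2, the kel-1 probe set at 0.01 from -0.094 to 0.15, nas-12 from -0.35 to 0.25, the dimmer peb-1 probe set from -0.81 to 0.017, and the pha-4 probe sets from -0.17 to 0.015 and from -0.19 to 0.024. Without both arrays of replicate 3, hlh-6 was -0.0032 and nas-12 was 0.21. Without both of replicate 1, the same kel-1 probe set was -0.16, while the other kel-1 probe set stayed higher at 0.13. Without both of replicate 2, the first pha-4 probe set was 0.011, while the other stayed lower at -0.023. The cause was not tested. Signal over background is not known, so no limit can be given for dim probe sets such as that of hlh-6.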
